A study of Mus musculus with 6 samples.

Results

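Non-coding transcripts that carry only a catalogue name were examined in primary brown adipocytes, fat cells grown from precursors of brown adipose tissue. They were chosen by their abundance, as non-coding RefSeq transcripts (accession starting with NR_) with a symbol of Gm and digits or ending in Rik, that averaged 1 RPKM or more across the 6 cultures. RPKM is a number of reads scaled to the length of the transcript and to the mapped reads of the culture. For each symbol the transcript with the highest mean was kept. Of 1716 symbols of this form, 283 met the minimum, 201 ending in Rik and 82 starting with Gm. Their abundance is therefore a description of the choice, whereas the genotype labels were not used in it. The minimum applied to the mean of all cultures, so 16 transcripts with a WT mean under 1 RPKM were included through their Ucp1-KO values and 6 with a Ucp1-KO mean under 1 RPKM through their WT values.

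Gm symbols are placeholders for predicted mouse genes and Rik symbols stem from a large collection of full-length mouse cDNAs, so neither says anything about function. Transcripts of this kind include long non-coding RNAs, which can act in the nucleus on chromatin or in the cytoplasm on other RNAs, host transcripts from whose introns small nucleolar RNAs (snoRNAs) or microRNAs are cut, and copies of coding genes that have lost their reading frame (pseudogenes). Many start beside a coding gene and run in the opposite direction, and some have later been found to encode very small proteins.

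The cultures came from male 129SvEvS1 mice aged 5 to 6 weeks that were either WT or Ucp1-KO, lacking uncoupling protein 1, the heat-producing proton carrier of brown fat mitochondria. Precursors of interscapular brown adipose tissue were induced for 2 days and differentiated for 7 days before total RNA was taken. There were 3 independent cultures of each genotype, WT 10, 11 and 12 and Ucp1-KO 13, 14 and 15. Single reads of 50 bases were sequenced from libraries that do not keep the strand.

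Library totals, inferred from the RPKM values, lay between 14989604 and 17727653 reads. The targeted gene was listed at 1775, 981 and 1157 RPKM in WT and at 307, 409 and 398 RPKM in Ucp1-KO cultures, with no overlap (log2 difference -1.78 ± 0.24, SE, limma, adjusted p = 0.868), and the allele still gives a remnant transcript. The deleted gene itself thus did not pass the adjusted threshold of 0.05 used for the transcripts described here. Adipocyte markers (7 of 7 at 0.5 RPKM or more) summed to 29461 to 31065 RPKM in WT and 30038 to 33260 RPKM in Ucp1-KO cultures. Markers of other cells differed between single cultures. The 5 macrophage markers with a transcript summed to 59.3 to 189 RPKM in WT and 42.0 to 853 RPKM in Ucp1-KO, the highest being culture 14. The 9 preadipocyte and stromal markers summed to 719 to 1680 and 618 to 978 RPKM, the 4 endothelial ones to 2.30 to 28.0 and 5.22 to 12.8 RPKM, and the 5 skeletal muscle ones to 3.36 to 8.26 and 3.16 to 18.6 RPKM, with Ckm, a defining muscle enzyme, under 0.1 RPKM on average. In RNA from whole cultures, fewer cells of a type and less RNA per cell cannot be told apart.

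The 283 transcripts ranged from 1.003 to 111 RPKM with a median of 2.63 RPKM. A mean under 2 RPKM was found for 109 and a mean of at least 10 RPKM for 31. None was at 0 in any culture. The reads behind single values ranged from 1 to 2984 with a median of 65, and 20 transcripts had fewer than 10 reads in at least 1 culture. The last inside the minimum were Gm6277, with 0.783, 0.927 and 1.15 RPKM in WT and 1.05, 0.979 and 1.17 RPKM in Ucp1-KO cultures, and 5730480H06Rik, with 1.15, 0.587 and 1.04 RPKM in WT and 0.749, 1.07 and 1.42 RPKM in Ucp1-KO. Just outside lay B930003M22Rik and Gm10516, both at a mean of 0.996 RPKM, so that the border runs through a continuous range of values.

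Annotation has moved on since these symbols were given. A RefSeq record of assembly GRCm38.p6 was found for 278 of the 283, and 50 of these now carry another symbol. RefSeq lists 224 as long non-coding RNA, 38 as transcribed pseudogenes and 16 as protein-coding. By role, 207 were long non-coding RNAs without small RNA genes inside, 40 pseudogenes by record or by name, 16 protein-coding, 12 snoRNA hosts and 3 microRNA hosts without a snoRNA, while 5 had no record. Of 271 transcripts matched to GENCODE M21, 110 shared exon sequence with a protein-coding gene on the opposite strand, and 126 started within 1000 bases of the start of a coding gene on the opposite strand.

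Of 5 transcripts that span a microRNA hairpin, Snhg20 (2810008D09Rik, Mir6516) and 2900076A07Rik (Mir1839) also carry snoRNAs and are counted with the snoRNA hosts. Sequences of mature microRNAs are given for the other 3, because the transcript measured here is the host of these small RNAs, which were not measured themselves. 2610203C20Rik is now Mir100hg and spans Mir100, Mirlet7a-2 and Mir125b-1 on chromosome 9, E130102H24Rik spans Mir101a on chromosome 4 and A330023F24Rik spans Mir29b-2 and Mir29c on chromosome 1. The sequences are those of RefSeq (GRCm38.p6), 5′ to 3′, and capitals mark the seed, bases 2 to 8. The pair from A330023F24Rik has the same seed, and the others each have one of their own.
miR-100-5p: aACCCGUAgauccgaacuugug
miR-125b-5p: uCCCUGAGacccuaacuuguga
miR-101a-3p: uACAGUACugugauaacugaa
miR-29b-3p: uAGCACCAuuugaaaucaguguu
miR-29c-3p: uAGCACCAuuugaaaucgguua

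Together the 283 transcripts summed to 1579, 1643 and 1671 RPKM in WT cultures (1631 ± 47.4, SD, n = 3) and to 1605, 1726 and 1833 RPKM in Ucp1-KO cultures (1722 ± 114, SD, n = 3). The genotypes overlapped in this sum, since Ucp1-KO culture 13 lay between WT cultures. This was 0.366% and 0.392% of the summed abundance of all RefSeq transcripts on average. The 12 most abundant held 37.0 to 41.2% of the sum in each culture, so a few transcripts supplied much of it.

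Several of the 12 most abundant transcripts share exon sequence with a coding gene on the opposite strand. 4732471J01Rik runs against Lipe, the gene of hormone-sensitive lipase, which releases fatty acids from the lipid droplet (chr7:25376823-25385736, plus strand, GRCm38). It was listed at 118, 105 and 114 RPKM in WT and 118, 109 and 102 RPKM in Ucp1-KO cultures, 113 ± 6.59 against 109.6 ± 8.16 RPKM (SD, n = 3). The spread within a genotype was larger than the difference, and the order of the cultures overlapped fully. Of its exon bases, 41.7% lie opposite Lipe exons, and its level was 23.1% of that of Lipe. Gm15441 runs against Txnip, which encodes the thioredoxin-interacting protein that restrains glucose uptake (chr3:96555788-96566801, minus strand). It was at 104, 71.2 and 83.1 RPKM in WT and at 96.4, 71.4 and 82.6 RPKM in Ucp1-KO cultures. The Ucp1-KO values lay within the WT range, and 36.7% of its exon bases lie opposite Txnip exons. 4930471I20Rik, now Acss2os, runs against Acss2, which turns acetate into acetyl-CoA (chr2:155547040-155556930, minus strand). Its values were 40.4, 27.6 and 33.5 RPKM in WT and 37.9, 36.5 and 33.9 RPKM in Ucp1-KO, all Ucp1-KO values lying within the WT range. 9130221H12Rik runs against Gsk3a, a kinase that inhibits glycogen synthase, with 50.9% of its bases opposite Gsk3a exons. With 26.3, 25.3 and 24.3 RPKM in WT and 25.5, 24.8 and 24.96 RPKM in Ucp1-KO, it had the smallest coefficient of variation of the 283 (2.68% over the 6 cultures). As the libraries do not keep the strand, reads in such shared exons cannot be told apart from those of the coding gene.

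The other abundant non-coding members included pseudogenes and neighbours of coding starts. 1700020I14Rik, now Oip5os1 and also called Cyrano, is a conserved non-coding RNA that binds a microRNA (chr2:119594297-119600746, plus strand). It was at 69.6, 70.2 and 79.2 RPKM in WT and 64.1, 74.6 and 91.3 RPKM in Ucp1-KO cultures, the lowest and the highest value both being Ucp1-KO. Gm12669 is a pseudogene of a single exon with 63.0, 77.4 and 75.8 RPKM in WT and 68.1, 88.1 and 90.8 RPKM in Ucp1-KO. The pseudogene 4930519F09Rik was at 31.5, 24.7 and 28.4 RPKM in WT and 31.4, 34.5 and 33.0 RPKM in Ucp1-KO. Assignment of reads to pseudogenes is uncertain, because near-identical copies elsewhere can take or give reads. Gm11602, now Ino80dos, starts 137 bases from Ino80d, a subunit of a chromatin remodeller, and overlaps Ndufs1 of respiratory complex I on the opposite strand. It was at 42.5, 34.0 and 36.6 RPKM in WT and 33.3, 42.3 and 45.4 RPKM in Ucp1-KO, against a mean of 3.29 RPKM for Ino80d and 192 RPKM for Ndufs1. Gm16062, antisense to the signalosome subunit gene Cops3 and starting 64 bases from Flcn, was at 27.4, 31.0 and 26.6 RPKM in WT and 29.5, 33.4 and 32.5 RPKM in Ucp1-KO, with overlap.

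**Figure D1:**
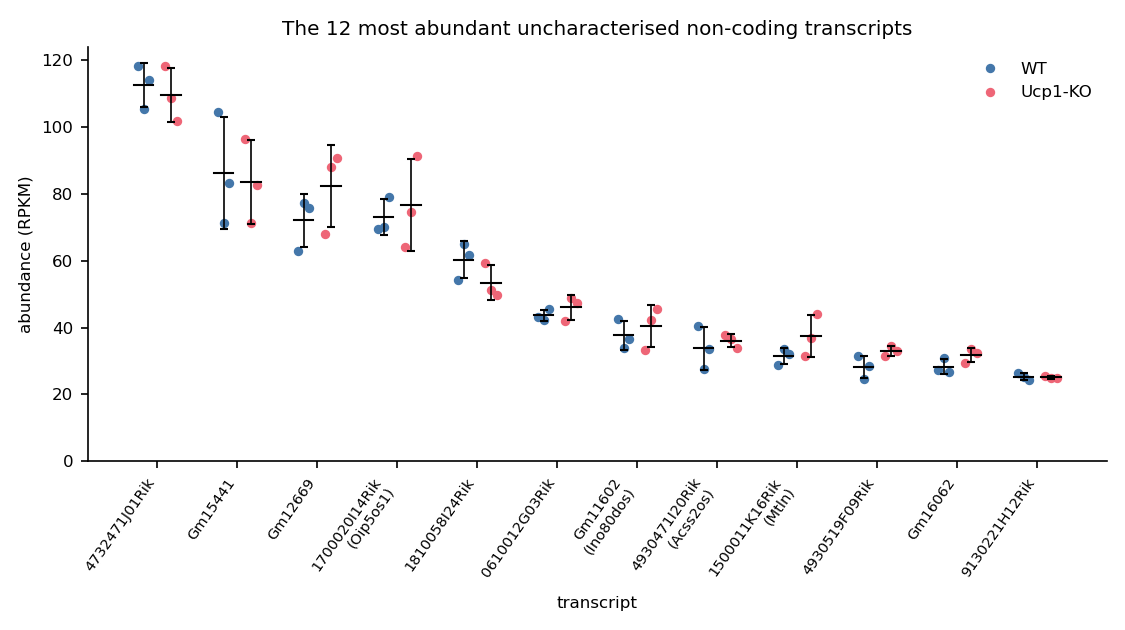
Abundance in RPKM (linear axis from 0) of the 12 most abundant uncharacterised non-coding transcripts. Points are single cultures, 3 per genotype, horizontal lines the mean and bars the SD. WT and Ucp1-KO points overlap for each of the 12, from 4732471J01Rik at 102 to 118 RPKM down to 9130221H12Rik at 24.3 to 26.3 RPKM.

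Of the 16 transcripts now listed as protein-coding, some encode small mitochondrial proteins. 1810058I24Rik was at 54.1, 65.1 and 61.7 RPKM in WT and 59.4, 51.1 and 49.9 RPKM in Ucp1-KO cultures. 1500011K16Rik, now Mtln, encodes mitoregulin, a small inner membrane protein linked to fatty acid oxidation. It was at 28.9, 33.7 and 32.1 RPKM in WT and 31.5, 36.8 and 44.0 RPKM in Ucp1-KO (log2 difference 0.23 ± 0.14, SE), with overlap through culture 13. The difference was 0.11 without Ucp1-KO culture 15 and 0.34 without culture 13. 2310009A05Rik, now Pigbos1, encodes a microprotein of the outer mitochondrial membrane that meets the endoplasmic reticulum. It was at 20.2, 22.0 and 19.4 RPKM in WT and 23.2, 25.6 and 24.4 RPKM in Ucp1-KO, so that all Ucp1-KO values were above all WT values. 0610012G03Rik, which starts 19 bases from the cap-binding protein gene Ncbp2, was at 43.2, 42.2 and 45.6 RPKM in WT and 42.0, 48.9 and 47.2 RPKM in Ucp1-KO. Cipc, a repressor of the circadian clock listed as 2310044G17Rik, was at 12.5, 10.8 and 11.8 RPKM in WT and 13.5, 14.7 and 12.4 RPKM in Ucp1-KO. Over the 16, 11 were higher and 5 lower on average in Ucp1-KO, and 1, Pigbos1, had an unadjusted p under 0.05, beside 49.6% higher and 5.54% at this p among all transcripts tested.

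The 12 snoRNA hosts ranged from 1.39 to 21.7 RPKM. Such transcripts carry snoRNAs, the guides of ribosomal RNA modification, in their introns, and many are growth-regulated. 2410006H16Rik, the most abundant, was at 10.5, 35.9 and 29.0 RPKM in WT and 9.54, 21.4 and 24.0 RPKM in Ucp1-KO cultures. WT culture 10 and Ucp1-KO culture 13 stood far below the other four here. Epb41l4aos (2410004N09Rik) had the same 2 cultures lowest, with 3.79, 6.09 and 6.12 RPKM in WT and 2.72, 8.84 and 7.86 RPKM in Ucp1-KO. Over the 12, 9 were higher and 3 lower on average in Ucp1-KO, with a median log2 difference of 0.12 and 0 at an unadjusted p under 0.05. Of the wider list of 21 snoRNA host genes, 20 were tested, 6 of them among the 283, and 14 were higher and 6 lower in Ucp1-KO, 0 with an unadjusted p under 0.05. Among all transcripts tested 49.6% were higher and 5.54% reached this p.

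A comparison of Ucp1-KO with WT asks whether loss of the uncoupling protein goes with other levels of these transcripts. None of the 283 passed an adjusted p of 0.05 (limma on log2(RPKM + 1), Benjamini-Hochberg over 16865 RefSeq transcripts), as did 0% of all transcripts tested, the smallest adjusted p being 0.868. An unadjusted p under 0.05 was found for 13 of the 283 (4.59%), 11 higher and 2 lower in Ucp1-KO, against 5.54% of all transcripts tested, 2.30% higher and 3.24% lower. All Ucp1-KO cultures lay above all WT cultures for 22 (7.77%, against 6.04% of all) and below for 3 (1.06%, against 5.15%), together 8.83% against 11.2%. For both directions together these shares were below those of all transcripts, whereas for higher in Ucp1-KO alone they were above them. The share at an unadjusted p under 0.05 rose above that of all transcripts with another scaling and on leaving out any culture except WT culture 10. Of the 261 with both genotype means at 1 RPKM or more, 10 had an unadjusted p under 0.05 (9 higher and 1 lower, 3.83% against 5.29% of the transcripts tested with the same limit), 19 lay above all WT cultures (7.28% against 6.01%) and 1 below (0.383% against 5.01%). With 3 cultures against 3, an exact permutation test cannot give a two-sided p under 0.1.

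The differences of the 283 were small and more often upward. On average 192 were higher and 91 lower in Ucp1-KO, and the median log2 difference was 0.08, with the middle range from -0.06 to 0.18. Over all transcripts tested the median was 0.00 and 49.6% were higher. It was 0.01 with 52.8% higher for 288 named non-coding genes at the same minimum, and 0.02 with 57.7% higher for 279 uncharacterised genes with a protein-coding transcript. With 0.1 RPKM added in place of 1, the median of the 283 was 0.12, and by limma-voom 0.12. Over all transcripts it was -0.004 in both fits. The genotype means lay within 1.25-fold of each other for 214 of the 283. The Ucp1-KO mean was at least 1.5-fold higher for 11 and at least 1.5-fold lower for 6. These counts by fold stand without the share over all transcripts, so they do not set the 283 apart from others. The 16 transcripts included through Ucp1-KO count among the higher ones by that choice, and the 6 included through WT among the lower ones. Of the 261 with both genotype means at 1 RPKM or more, 176 were higher and 85 lower (67.4% higher, median 0.08), against 49.2% of the transcripts tested with the same limit. By band of abundance the share higher in Ucp1-KO ranged from 65.1% at 1 to 2 RPKM to 71.3% at 2 to 5 RPKM. Among named protein-coding genes this share fell from 53.3% at 1 to 2 RPKM to 45.7% at 10 RPKM or more.

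**Figure D2:**
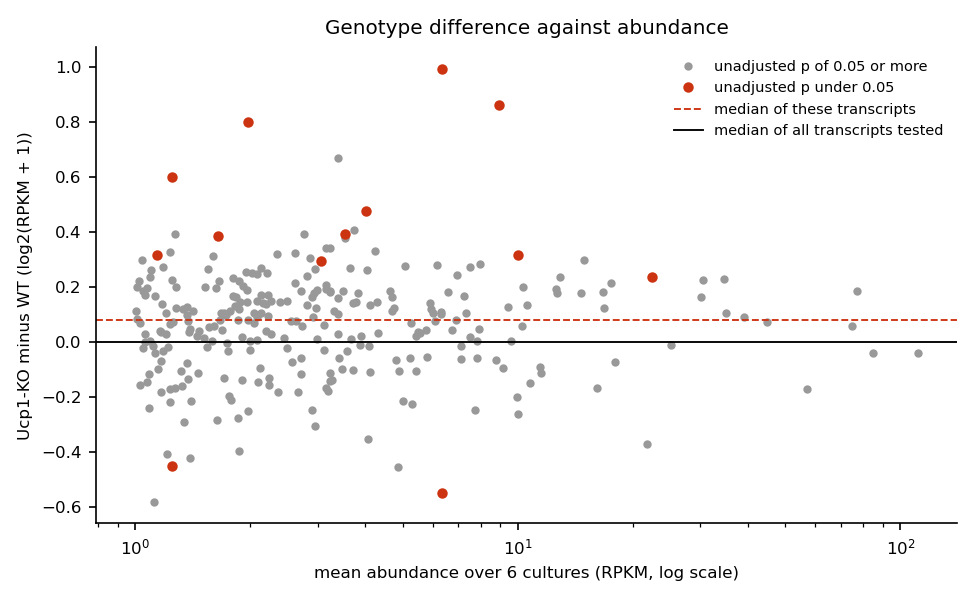
Difference between the genotypes (Ucp1-KO minus WT on the log2(RPKM + 1) scale) against mean abundance (RPKM, log axis) for 283 transcripts, with the 13 at an unadjusted p under 0.05 in red. The dashed line is their median of 0.08 and the solid line that of all transcripts tested, 0.00, and most points lie above the latter.

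This shift moved with single cultures, and so did the values over all transcripts. Ucp1-KO culture 15 had the highest value of the 6 for 101 of the 283 (35.7%, against 23.6% of all transcripts tested), while WT culture 10 and Ucp1-KO culture 13 were the 2 lowest for 88 (31.1%, against 27.2%). Without culture 15 the median log2 difference was 0.04 and 166 were higher (58.7%, against 48.4% of all transcripts). Without WT culture 10 it was 0.04 and 158 were higher (55.8%, against 42.7%). The medians over all transcripts were then -0.01 and -0.04. Without Ucp1-KO culture 13 the median was 0.14 and 204 were higher (72.1%), against 0.02 and 54.1% over all transcripts. Then 75 (26.5%) lay above all WT cultures, as did 15.2% of all transcripts. The 3 RNAs retained in the nucleus that were listed as markers, Malat1, Neat1 and Meg3, summed to 663, 525 and 632 RPKM in WT and to 692, 694 and 823 RPKM in Ucp1-KO, without overlap and highest in culture 15. Singly, all 3 overlapped between the genotypes. Malat1 was at 109, 87.0 and 136 RPKM in WT and 124.6, 169 and 246 RPKM in Ucp1-KO. Neat1, the largest part of the sum, was at 549, 425 and 486 RPKM in WT and 561, 517 and 568 RPKM in Ucp1-KO, and Meg3 at 5.39, 13.2 and 10.1 RPKM in WT and 6.83, 7.55 and 9.03 RPKM in Ucp1-KO. The part of nuclear RNA in the shift was not tested.

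**Figure D3:**
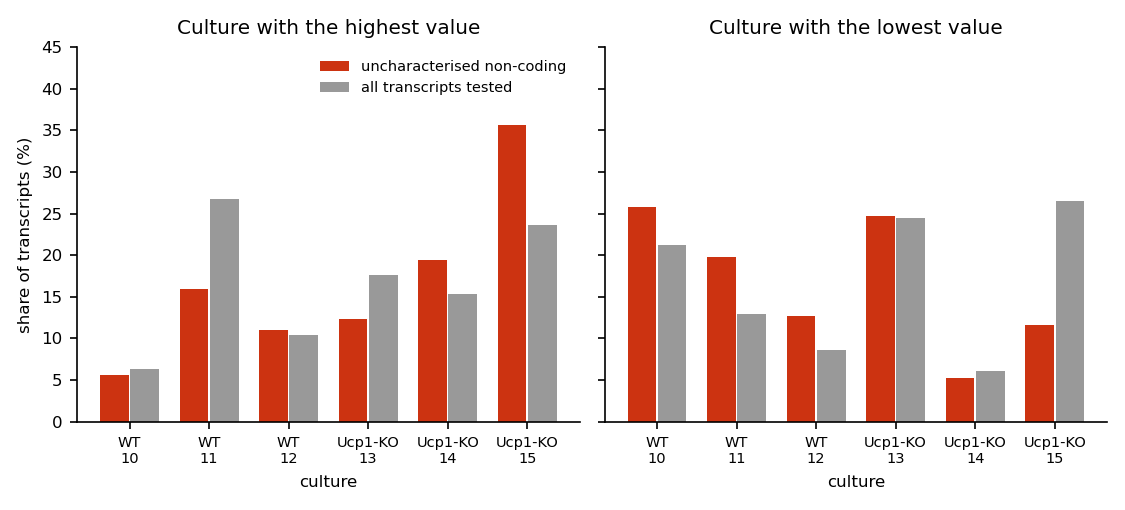
Share of transcripts (%) for which each culture had the highest (left) or the lowest (right) value of the 6, for the 283 uncharacterised non-coding transcripts (red) and all 16865 transcripts tested (grey). Ucp1-KO culture 15 was highest for 35.7% and 23.6%, and lowest for 11.7% and 26.5%.

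The 2 transcripts with the smallest unadjusted p were long non-coding RNAs away from coding exons. Gm5627 (chr9:102739648-102756685, plus strand), 6230 bases from Amotl2, was at 6.86, 6.44 and 4.85 RPKM in WT and 11.4, 13.7 and 10.2 RPKM in Ucp1-KO cultures. Its log2 difference was 0.86 ± 0.15 (SE, limma, unadjusted p = 0.000908, adjusted p = 0.868). All Ucp1-KO cultures were above all WT cultures, while Amotl2, a junction protein gene, was at 39.2 ± 0.814 and 37.7 ± 1.97 RPKM (SD, n = 3). E330011O21Rik (chr16:78250861-78265952, minus strand) was at 1.48, 1.01 and 1.01 RPKM in WT and 3.19, 2.26 and 2.88 RPKM in Ucp1-KO, a log2 difference of 0.80 ± 0.15 (SE), or 1.19 with 0.1 RPKM added and 1.24 by limma-voom. The lowest of these values rested on 16 reads.

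Ctcflos (1300015D01Rik, chr2:173124749-173133204, plus strand) lies 5224 bases from Ctcfl, a germ-line relative of the insulator protein gene Ctcf. It was at 5.76, 2.84 and 3.16 RPKM in WT and 11.8, 6.01 and 8.52 RPKM in Ucp1-KO, a log2 difference of 0.99 ± 0.29 (SE, limma, unadjusted p = 0.0108). Ctcfl was at 1.60, 0.857 and 1.30 RPKM in WT and 4.27, 2.15 and 3.32 RPKM in Ucp1-KO (0.90 ± 0.22, SE, limma, unadjusted p = 0.00499). Neither gene overlapped between the genotypes, and in both the cultures stood in the same order within Ucp1-KO, 13 highest and 14 lowest.

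Only 2 members were lower in Ucp1-KO among the 10 with the smallest p. 0610040F04Rik (chr6:108577039-108660934, minus strand) starts 60 bases from Bhlhe40, a transcriptional repressor of the circadian clock, and runs away on the other strand. It was at 1.59, 1.76 and 1.43 RPKM in WT and 1.14, 0.870 and 0.693 RPKM in Ucp1-KO, a log2 difference of -0.45 ± 0.13 (SE), or -0.78 with 0.1 RPKM added and -0.83 by limma-voom. Its Ucp1-KO mean was under 1 RPKM, so it was included through its WT values. Bhlhe40 itself was at 35.1, 35.3 and 29.4 RPKM in WT and 24.1, 20.1 and 22.8 RPKM in Ucp1-KO, a log2 difference of -0.55 ± 0.11 (SE, limma, unadjusted p = 0.00185). Both had all Ucp1-KO cultures below all WT cultures, and 5.49% of the exon bases of 0610040F04Rik lie opposite Bhlhe40 exons, where reads cannot be told apart. Mir100hg (2610203C20Rik), the host of miR-100 and miR-125b shown above, was at 7.09, 8.55 and 7.42 RPKM in WT and 6.34, 5.04 and 3.67 RPKM in Ucp1-KO, a log2 difference of -0.55 ± 0.18 (SE). Of the microRNA hosts without a snoRNA, the other two overlapped between genotypes. E130102H24Rik was at 1.10, 2.80 and 3.70 RPKM in WT and 1.16, 2.48 and 3.75 RPKM in Ucp1-KO, and A330023F24Rik at 1.16, 1.20 and 1.86 and at 0.751, 1.12 and 2.12 RPKM.

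The remaining 5 of these 10 were higher in Ucp1-KO, by 0.32 to 0.60 on the log2(RPKM + 1) scale. With 0.1 RPKM added in place of 1, E030003E18Rik was at 1.10 in place of 0.60, 1110020A21Rik at 0.55 in place of 0.32 and C530005A16Rik at 0.59 in place of 0.39. 3110056K07Rik, which starts 158 bases from the chromatin protein gene Arid4a, was at 2.70, 2.77 and 3.29 RPKM in WT and 3.72, 4.04 and 4.71 RPKM in Ucp1-KO. 1300002E11Rik was at 9.05, 8.54 and 8.81 RPKM in WT and 12.1, 9.65 and 12.01 RPKM in Ucp1-KO, and it shares exon sequence with Map3k13, a kinase gene near 0 here. In both, the genotypes did not overlap. 1110020A21Rik, beside the phosphatase gene Ppm1b, was at 0.961, 0.843 and 0.926 RPKM in WT and 1.31, 1.496 and 1.33 RPKM in Ucp1-KO, again without overlap, on as few as 12 reads. It and E030003E18Rik had a WT mean under 1 RPKM and were included through their Ucp1-KO values, so that their direction follows from the choice. C530005A16Rik lies against Ccdc17 and Gpbp1l1, with 44.6% of its exon bases opposite coding exons, and was at 1.08, 1.35 and 1.46 RPKM in WT and 2.03, 2.19 and 1.78 RPKM in Ucp1-KO. Ccdc17, a coiled-coil protein gene, also had all Ucp1-KO values (2.66, 2.98 and 3.13 RPKM) above all WT values (1.70, 2.15 and 2.42 RPKM). E030003E18Rik was at 1.40, 0.497 and 0.520 RPKM in WT and 1.94, 1.34 and 1.78 RPKM in Ucp1-KO, where WT culture 10 overlapped with Ucp1-KO. Beyond these 10, Map2k3os (Gm16516), Gm9899 and Pigbos1 also had an unadjusted p under 0.05, all higher in Ucp1-KO.

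**Figure D4:**
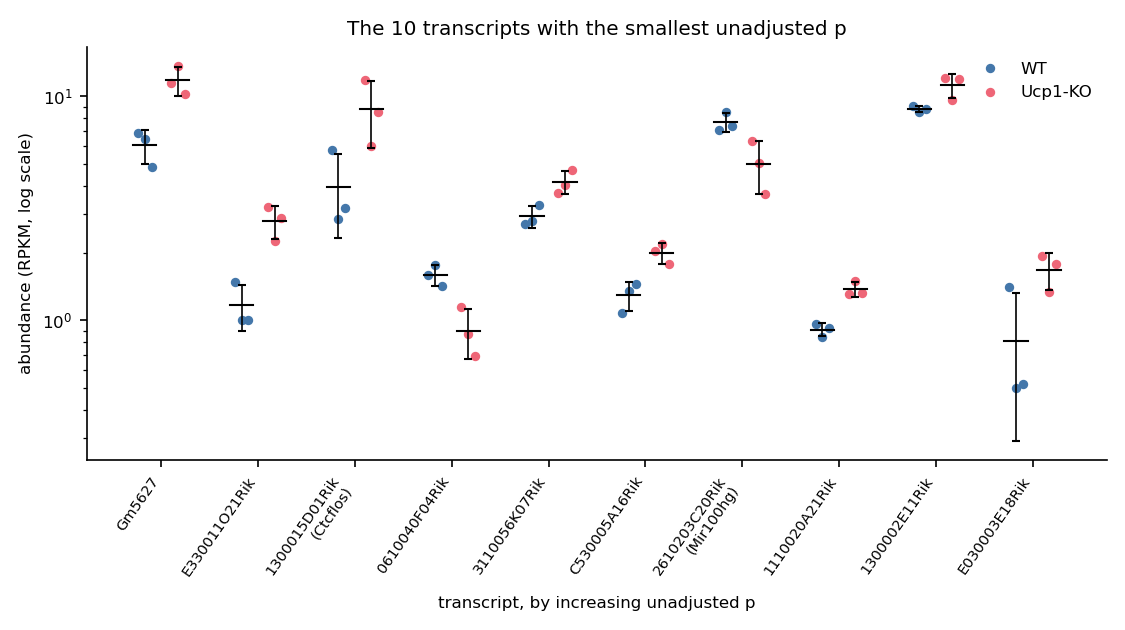
Abundance (RPKM, log axis) of the 10 transcripts with the smallest unadjusted p. Points are single cultures, 3 per genotype, horizontal lines the mean and bars the SD. In Ucp1-KO 8 are higher and 2, 0610040F04Rik and Mir100hg, lower, and the genotypes overlap in E030003E18Rik alone.

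Promoter sequence, 250 bases before to 50 after the start, was available from RefSeq (GRCm38.p6) for 199 of the 283. It was searched on both strands for TATAAA, the core of the TATA box, for CCAAT, the core of the CCAAT box, for GGGCGG, the GC box, and for TGACGTCA, the cyclic AMP response element. None of these motifs contains another. TATAAA was found in 6.03% of the 199 and in 14.2% of all 27025 promoters of the table, CCAAT in 39.2% and 37.9%, GGGCGG in 54.8% and 35.9% and TGACGTCA in 4.02% and 1.88%. The median GC content was 60.3% against 52.7% over all promoters. It was 66.3%, with a median of 28 CpG dinucleotides, for the 101 with a coding start within 1000 bases on the opposite strand, and 54.5% with 8 CpG for 90 others matched to GENCODE. The promoters of the table were not limited to genes expressed in these cultures, whereas the 199 belong to transcripts chosen by abundance. Whether these differences are particular to the non-coding transcripts was not tested. A match describes the letters and does not show binding.

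Sequences of 5 promoters of the 10 transcripts with the smallest p are shown, those of the pair with the smallest p for which one was at hand and those of the 3 with at least 3 CCAAT motifs. Motif matches are in capitals, CCAAT on the other strand reading ATTGG. At least 3 CCAAT were present in 6.03% of the 199 promoters and 3.56% of all, and in 3110056K07Rik there were 6. 1110020A21Rik and 1300002E11Rik also hold TGACGTCA, Ctcflos holds TATAAA and 1 CCAAT, and Gm5627 has none of the motifs.
Gm5627, chr9:102739398-102739697 (plus strand): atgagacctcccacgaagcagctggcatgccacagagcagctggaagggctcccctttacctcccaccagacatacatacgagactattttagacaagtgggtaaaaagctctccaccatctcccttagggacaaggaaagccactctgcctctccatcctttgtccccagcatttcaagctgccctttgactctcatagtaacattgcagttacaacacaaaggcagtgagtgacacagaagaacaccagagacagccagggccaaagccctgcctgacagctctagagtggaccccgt
Ctcflos (1300015D01Rik), chr2:173124499-173124798 (plus strand): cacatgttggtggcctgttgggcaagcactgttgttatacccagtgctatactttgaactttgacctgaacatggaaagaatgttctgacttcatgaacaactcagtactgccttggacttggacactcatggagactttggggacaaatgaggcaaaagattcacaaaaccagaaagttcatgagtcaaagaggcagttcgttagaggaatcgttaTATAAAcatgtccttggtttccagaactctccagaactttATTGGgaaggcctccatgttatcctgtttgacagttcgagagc
3110056K07Rik, chr12:71015774-71016073 (minus strand): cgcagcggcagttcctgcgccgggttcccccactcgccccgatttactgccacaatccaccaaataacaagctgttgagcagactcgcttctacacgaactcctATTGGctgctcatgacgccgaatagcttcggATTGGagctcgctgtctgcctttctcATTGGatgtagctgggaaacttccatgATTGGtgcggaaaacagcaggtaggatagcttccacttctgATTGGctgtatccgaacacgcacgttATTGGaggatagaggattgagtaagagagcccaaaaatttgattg
1110020A21Rik, chr17:84957374-84957673 (minus strand): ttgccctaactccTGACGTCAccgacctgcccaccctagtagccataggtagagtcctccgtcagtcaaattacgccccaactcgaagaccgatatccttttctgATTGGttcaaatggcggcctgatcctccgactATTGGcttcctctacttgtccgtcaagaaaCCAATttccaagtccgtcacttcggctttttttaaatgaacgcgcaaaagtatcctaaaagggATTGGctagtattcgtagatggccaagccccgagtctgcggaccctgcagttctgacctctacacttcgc
1300002E11Rik, chr16:21794097-21794396 (plus strand): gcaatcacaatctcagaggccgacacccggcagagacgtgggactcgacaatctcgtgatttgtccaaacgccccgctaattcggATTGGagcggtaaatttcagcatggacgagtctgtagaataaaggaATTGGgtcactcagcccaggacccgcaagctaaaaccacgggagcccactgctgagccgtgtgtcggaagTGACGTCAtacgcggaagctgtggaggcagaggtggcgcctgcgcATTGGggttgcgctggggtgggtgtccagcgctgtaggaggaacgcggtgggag

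Coding genes beside these transcripts had median differences near 0. In 118 pairs of a member and a coding gene with exons opposite it, the median log2 difference was 0.07 for the members and -0.01 for the coding genes. In 115 pairs with starts within 1000 bases on opposite strands it was 0.10 and -0.01. Members were less abundant than the coding partner in 105 of the 118 and 98 of the 115 pairs, at a median of 21.3% and 18.6% of its level per length. By position, 44 of the 54 with only a shared start region were higher in Ucp1-KO (median 0.11), 24 of the 38 with only an antisense exon overlap (0.05), 48 of the 72 with both (0.08) and 69 of the 107 with neither (0.08). These medians lay close together, and no test of their difference was made.

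Cultures differed more for these transcripts than for others, with a median coefficient of variation of 20.7% over the 6 cultures against 14.7% for all transcripts tested. By band of abundance it was 25.1% against 25.9% for named protein-coding genes at 1 to 2 RPKM, 20.5% against 16.99% at 2 to 5 RPKM, 17.3% against 12.7% at 5 to 10 RPKM and 12.7% against 11.3% at 10 RPKM or more. 1700047G03Rik varied most (82.3%), with 1.12, 0.927 and 0.403 RPKM in WT and 2.65, 1.38 and 0.0794 RPKM in Ucp1-KO, the last being 1 read. Gm15987 was at 0.271, 1.22 and 1.62 RPKM in WT and 0.286, 2.14 and 0.740 RPKM in Ucp1-KO, again lowest in WT culture 10 and Ucp1-KO culture 13. 2310034G01Rik was lowest in the same cultures, with 0.446, 2.28 and 0.931 RPKM in WT and 0.471, 0.883 and 1.44 RPKM in Ucp1-KO. Smim41 (6030408B16Rik), now a coding gene of a small membrane protein, was even in WT at 9.11, 7.28 and 8.72 RPKM and spread in Ucp1-KO from 3.21 over 6.49 to 20.2 RPKM, the highest in culture 15. 4930565N06Rik was at 1.31, 1.19 and 3.06 RPKM in WT and 0.923, 2.28 and 4.47 RPKM in Ucp1-KO. None of these 5 separated the genotypes, and Ucp1-KO spread over a wider range than WT in 4 of them.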

How the data were processed

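RNA of 3 WT and 3 Ucp1-KO cultures was compared, grouped by the genotype in the labels. Single reads of 50 bases were mapped by the authors to mouse genome build 38. From the uniquely placed reads per known transcript they computed, with Genomatix software, the RPKM values they deposited. Each of the 6 value columns carries the name of 1 culture. RPKM values were multiples of what 1 read is worth, and 16864 of 16865 transcripts tested gave whole reads (within 0.02 reads) in all cultures. Library totals were inferred from the RPKM values of transcripts of known length. The length of a RefSeq transcript was taken as the smallest that gave whole reads, so the reads given here are inferred as well.

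RefSeq transcripts averaging 0.5 RPKM or more (16865, which included all 283) were compared with limma 3.58.1 (R 4.3.3), using log2(RPKM + 1), moderated variances that follow abundance, genotype as the only term and Benjamini-Hochberg adjustment. Differences on this scale understate those of low transcripts. In simulated data with independent noise for each transcript and 200 of 16865 changed 3-fold, 166 calls were made, 160 on changed transcripts. In the deposited values 0 transcripts passed, Ucp1 included. Real cultures vary together over many transcripts, WT 10 and Ucp1-KO 13 being the 2 lowest for 27.2% of all. The simulation lacks this, so it cannot tell which changes the fit would find here. Each member was compared by an exact permutation test (two-sided) as well. Annotation was from RefSeq GRCm38.p6 and GENCODE M21.

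Described with values were the 12 most abundant members, the 10 with the smallest p, the 5 most variable and those at the border, with their neighbouring genes. Pigbos1, the hosts of small RNAs and further examples were chosen after their values were seen. The members and lists were chosen with earlier results of these data known. Replicates are separate cultures, so p-values measure the spread between cultures. Alternatives were another constant, other minimum abundances, 1 transcript per gene, all annotations, median-of-ratios scaling, limma-voom on the recovered reads and leaving out each culture. Other steps used Python 3.11.15, matplotlib 3.10.9, scipy 1.17.1, pandas 2.3.3 and numpy 2.4.6. Both the number of cultures and, for low members, the number of reads limit precision.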

Additional observations from a re-analysis of the deposited data

How the results depend on the processing

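No member passed an adjusted p of 0.05 by limma or limma-voom under any alternative, nor did any other RefSeq transcript (0 calls, with 317 to 1754 at an unadjusted p under 0.05 when 1 culture was left out). For the 29 members described by rule, 358 of 377 alternative values kept their direction and side of the threshold, and 19 turned, 18 of them on leaving out a culture. No paired analysis was possible because the genotypes share no replicate number. With median-of-ratios scaling, 26 members lay above all WT cultures (9.19%, against 5.73% of all transcripts) and 6 below (2.12%, against 6.10%), and 9130221H12Rik had a log2 difference of 0.001028. The share at an unadjusted p under 0.05, below that of all transcripts with all cultures, was above it with this scaling (6.36 against 5.93%) and without WT 11 (3.53 against 1.88%), WT 12 (4.24 against 2.61%), Ucp1-KO 13 (9.54 against 9.14%), 14 (4.59 against 3.57%) or 15 (5.65 against 5.16%). A minimum of 2 RPKM left 174 members. In a separate alternative, the sum over all NR_ transcripts of the 283 symbols reached 1968 (WT) and 2087 RPKM (Ucp1-KO). On leaving out each culture, 10 to 28 members had an unadjusted p under 0.05 (28 without WT culture 10 and 27 without Ucp1-KO culture 13), 35 to 75 lay above all WT cultures (12.4 to 26.5%, against 8.43 to 15.2% of all transcripts) and 6 to 35 below (2.12 to 12.4%, against 5.96 to 20.2%), and the median log2 difference was 0.04 to 0.14. The log2 differences that turned then ranged for 4732471J01Rik from -0.095 to 0.010, for Gm15441 from -0.17 to 0.11, for 1700020I14Rik from -0.074 to 0.18, for 4930471I20Rik from -0.027 to 0.24, for 9130221H12Rik from -0.038 to 0.016, for 6030408B16Rik from -0.73 to 0.43, for 4930565N06Rik from -0.12 to 0.63, for 1700047G03Rik from -0.16 to 0.72, for 2310034G01Rik from -0.41 to 0.18, for Gm15987 from -0.38 to 0.27 and for 5730480H06Rik from -0.022 to 0.23. Apart from the leave-one-out fits, whose counts rest on fewer cultures, the cause was not tested.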

Other observations

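Among named long non-coding RNAs that were listed for comparison, 16 were tested, 7 higher and 9 lower in Ucp1-KO with a median log2 difference of -0.03. Those that are members under a Rik symbol were Oip5os1, Firre and Norad. Firre (6720401G13Rik), an X-linked RNA of nuclear organisation, was at 4.49, 5.09 and 6.502 RPKM in WT and 4.83, 5.87 and 10.2 RPKM in Ucp1-KO cultures. Norad (2900097C17Rik), which binds Pumilio proteins, was even at 2.17, 2.11 and 1.81 RPKM in WT and 1.98, 2.09 and 1.85 RPKM in Ucp1-KO. In the list 2 RNAs had an unadjusted p under 0.05 by limma, Malat1 (log2 difference 0.67) and the imprinted Peg13 (-0.29), beside 5.54% of all transcripts tested, and 0 passed an adjusted p of 0.05.

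Of the 6 members at least 1.5-fold lower in Ucp1-KO, A730020M07Rik had the lowest mean relative to WT but overlapping cultures. It was at 1.57, 1.38 and 1.51 RPKM in WT and at 1.58, 0.519 and 0.171 RPKM in Ucp1-KO, so that culture 13 was above all WT cultures and culture 15 far below. Stk35os1 (4932416H05Rik) differed by less than 1.5-fold and is not among these 6. It was tight in both genotypes, with 1.31, 1.26 and 1.22 RPKM in WT and 0.901, 0.938 and 0.906 RPKM in Ucp1-KO (log2 difference -0.24 ± 0.10, SE, limma, unadjusted p = 0.0532). Both were chosen after their values were seen. Both A730020M07Rik and Stk35os1 had a Ucp1-KO mean under 1 RPKM and were included through their WT values, so that their direction follows from the choice.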
